A study of Homo sapiens with 18 samples.

Results

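CRLM1 is the transcript of LINC01767, a long noncoding RNA gene on human chromosome 1 that the deposited tables list as RP4-710M16.2. The report follows that gene and the protein-coding genes named as its neighbours: PPAP2B (now PLPP3), PRKAA2, DAB1 and USP24. Members were found by an exact match of the gene symbol in both tables, and 4 of the 5 listed genes were found among 31004 genes. DAB1 is not analysed here. All measurements come from HCT116, an established cell line of human colorectal carcinoma, in 18 RNA-seq libraries that form 6 groups of 3 biological replicates.

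Each group combines a stable background with a transfection. The CRLM1 background stably overexpressed CRLM1, the Antisense background its antisense sequence, and the Ctrl background carried the empty vector. CRLM1 was expressed from a lentiviral vector with GFP and puromycin resistance. In addition, cells received an expression construct of hnRNPK, an RNA- and DNA-binding protein that prefers C-rich stretches, or its negative control (NC). The groups are therefore Ctrl_NC, Ctrl_hnRNPK, Antisense_NC, Antisense_hnRNPK, CRLM1_NC and CRLM1_hnRNPK. The sources used here do not say whether each background was a single clone or a selected pool, so a difference between backgrounds cannot be told apart from a difference between the lines as they were derived. The added CRLM1 copy came from a vector and not from the chromosome 1 locus.

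Some long noncoding RNAs act in cis, on genes near the site where they are transcribed, and others act in trans, away from it. A cis effect is usually asked for among the nearest protein-coding genes. Here the question was whether the neighbours differed with the amount of CRLM1 RNA, with the background and with hnRNPK. PPAP2B encodes a membrane phosphatase that removes the phosphate of lysophosphatidic acid and sphingosine 1-phosphate outside the cell. PRKAA2 encodes a catalytic alpha subunit of AMP-activated protein kinase (AMPK), the energy sensor of the cell. USP24 encodes a ubiquitin-specific protease, and DAB1 an adaptor of reelin signalling.

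In the reference annotation (GENCODE release 44, build GRCh38), LINC01767 spans chr1:56414918-56417137 on the plus strand. A 545-nt transcript of it has 4 exons, and these are printed because they are the RNA that the CRLM1 group overproduced. Capitals mark runs of 4 or more C, the kind of stretch that hnRNPK binds.
CRLM1 exon 1, chr1:56414963-56415150, plus strand: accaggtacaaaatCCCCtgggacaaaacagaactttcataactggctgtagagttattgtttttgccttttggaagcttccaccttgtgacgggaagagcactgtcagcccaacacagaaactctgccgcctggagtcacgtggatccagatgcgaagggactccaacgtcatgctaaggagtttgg
CRLM1 exon 2, chr1:56415248-56415342, plus strand: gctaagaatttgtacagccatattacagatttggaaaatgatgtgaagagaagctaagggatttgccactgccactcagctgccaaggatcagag
CRLM1 exon 3, chr1:56415533-56415609, plus strand: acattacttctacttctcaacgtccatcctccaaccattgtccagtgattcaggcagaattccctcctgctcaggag
CRLM1 exon 4, chr1:56415782-56415966, plus strand: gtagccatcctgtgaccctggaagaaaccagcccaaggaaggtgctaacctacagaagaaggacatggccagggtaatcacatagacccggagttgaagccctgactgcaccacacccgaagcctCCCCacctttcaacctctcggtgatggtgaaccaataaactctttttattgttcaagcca
The joined transcript held 2 such runs (CCCC), at positions 15 to 18 and 486 to 489, and its reverse complement held 0. A run on the sense strand was common: 74.6% of 6322 annotated lncRNA transcripts of 500 to 600 nt had at least 1, and 48.0% had at least as many as CRLM1. The match is of letters only. The 9 probes of 59 nt that the study designed for pulling down CRLM1 matched the reverse complement of transcript positions 1 to 531, which ties the study's CRLM1 to these exons.

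The gene nearest to LINC01767 among the members was PPAP2B, at chr1:56494761-56645301 on the minus strand, with a gap of 77.6 kb. PRKAA2, at chr1:56645314-56715335 on the plus strand, lies 228.2 kb away. It runs in the opposite direction and starts 13 bp from the outer end of the annotated PPAP2B span. In the RefSeq annotation the PPAP2B start lies elsewhere, at chr1:56579563. That is 164.6 kb from the LINC01767 start, beside 230.4 kb for PRKAA2. USP24, at chr1:55066359-55215378 on the minus strand, lies on the other side with a gap of 1199.5 kb. LINC01767 itself sits inside the span of a lncRNA of the opposite strand, RP11-504A18.1, which had between 0 and 3 counts in every library. It also sits inside an annotated protein-coding gene, ENSG00000284686, at chr1:56173433-56524495 on the minus strand. That gene is absent from the count table, so it could not be read here.

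Libraries held 19732681 to 27039520 counts. The epithelial markers EPCAM, KRT8, KRT18, KRT19 and CDH1 were high in all libraries (at least 83.3 CPM), CDX2 ran from 2.34 to 16.6 CPM and VIL1, a marker of differentiated gut epithelium, did not pass 0.796 CPM. Of the markers of other cell types, PTPRC, PECAM1 and ALB had at most 3 counts in a library, and COL1A1 ran from 11.2 to 32.8 CPM. CPM here is a gene's share of the library's counts, on the usual CPM scale, adjusted by TMM over all libraries, and FPKM, used where levels of different genes are compared, is the authors' value per length. HNRNPK itself averaged 471 ± 8.43 CPM (SD, n = 3) in Ctrl_NC and 584 ± 81.6 CPM (SD, n = 3) in Ctrl_hnRNPK, where the third library had 491 CPM. By edgeR the hnRNPK groups were 1.22-fold higher in it than NC in the Ctrl background (adjusted p = 0.36). The folds were 1.47 in the CRLM1 background (adjusted p = 0.53) and 1.28 in the Antisense background (adjusted p = 0.00084). The libraries Ctrl_hnRNPK 3 and CRLM1_hnRNPK 3 stood apart: over genes, their log2 CPM correlated at 0.960 to 0.965 and 0.956 to 0.960 with their own group, and at 0.984 to 0.986 and 0.980 with the NC libraries of their background. The study did not use this pair of libraries. Here every library was used as labelled, and values without the third library of each hnRNPK group are given beside the results they touch. That setting also drops Antisense_hnRNPK 3, which the study did not name as left out. It correlated at 0.987 to 0.991 with its own group and at 0.967 to 0.972 with Antisense_NC.

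The CRLM1 gene was read in every library of the CRLM1 and Antisense backgrounds and in no library of the Ctrl background. CRLM1_NC libraries had 13522, 13247 and 11514 counts, or 608, 601 and 587 CPM. CRLM1_hnRNPK libraries had 13325, 11797 and 14756 counts, or 609, 579.9 and 658 CPM. At this level the gene took 0.0559% to 0.0632% of a library and ranked between 223 and 263 among all genes.

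Antisense libraries also gave reads to the CRLM1 gene, at a much lower level. Antisense_NC had 1161, 1172 and 977 counts, or 50.0, 49.5 and 50.0 CPM. Antisense_hnRNPK had 1121, 1394 and 1003 counts, or 42.5, 45.2 and 39.1 CPM. Whether counting used the strand is not given in the sources used here, so reads of the sense and the antisense transcript cannot be told apart, nor can vector copies and the gene at its own locus.

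All 6 Ctrl libraries had 0 counts at the CRLM1 gene. A count of 0 allows up to 3 counts, or at most 0.165 CPM in a Ctrl_NC library and 0.151 CPM in a Ctrl_hnRNPK library, for counting error only. Against those limits CRLM1_NC, at 599 ± 10.5 CPM (SD, n = 3), was at least 3621-fold higher than Ctrl_NC, and Antisense_NC, at 49.8 ± 0.307 CPM (SD, n = 3), at least 301-fold higher. With hnRNPK the bounds were 4075-fold for CRLM1_hnRNPK and 279-fold for Antisense_hnRNPK. Per length, the gene averaged 799.8 FPKM in CRLM1_NC and 72.7 FPKM in Antisense_NC. The neighbours lay between 0.24 and 3.89 FPKM over all libraries.

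The CRLM1 and Antisense backgrounds differed by a log2 fold change of 3.62 (95% interval 3.54 to 3.71, adjusted p = 7e-41) in NC cells. Adjusted p-values here and below are Benjamini-Hochberg values over every tested gene from the quasi-likelihood test of edgeR, unless another tool is named. In hnRNPK cells the difference was 3.90 (95% interval 3.43 to 4.37, adjusted p = 1e-05). Between CRLM1_hnRNPK and CRLM1_NC the CRLM1 gene differed by 0.08 (95% interval -0.24 to 0.41, adjusted p = 0.81), so any hnRNPK difference above 1.33-fold in the vector-driven RNA lies outside the interval. In the Antisense background the gene was lower with hnRNPK, by -0.24 (95% interval -0.43 to -0.06, adjusted p = 0.024), with groups that did not overlap. On the authors' FPKM, as log2(FPKM + 0.1), the value was 0.00 (adjusted p = 0.99 by limma), where the median of all genes shifted by 0.25. That call was also lost in a single fit of all libraries (adjusted p = 0.16) and without any 1 of 4 libraries (adjusted p = 0.051 to 0.068).

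**Figure D1:**
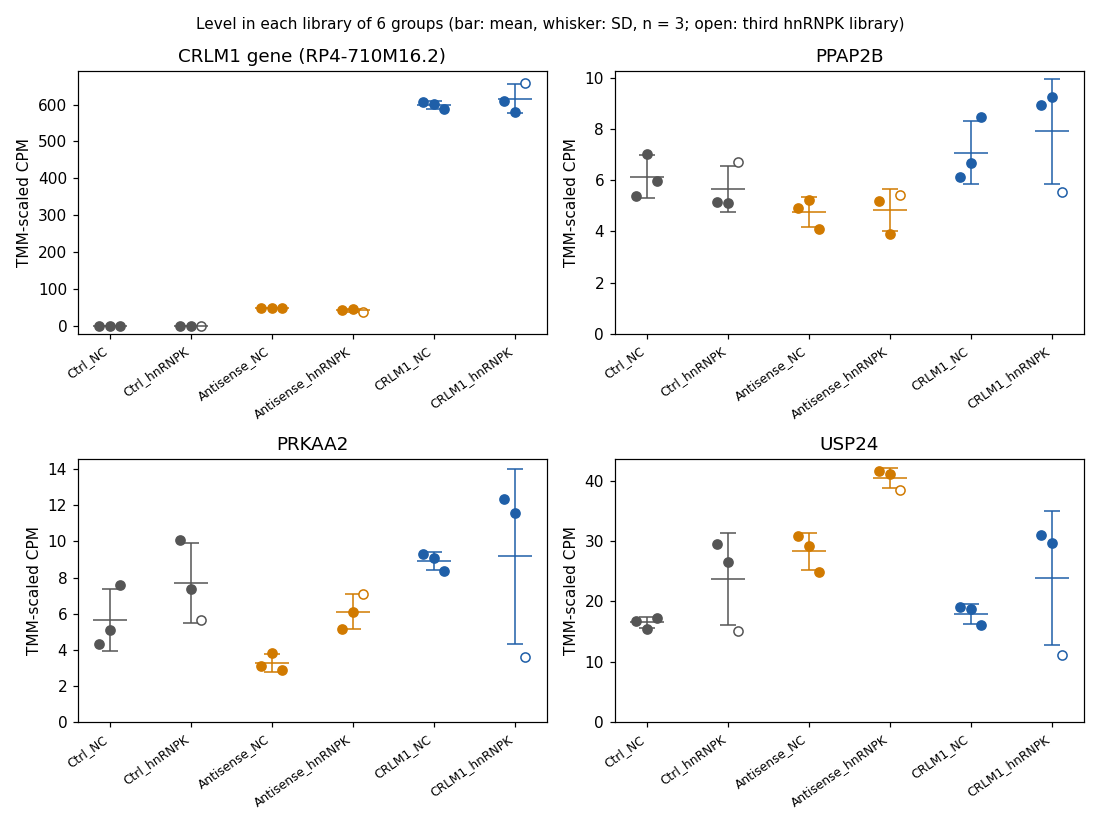
TMM-scaled CPM (y axis, linear) of the CRLM1 gene, PPAP2B, PRKAA2 and USP24 in each of 18 libraries, by group (x axis); bars give the mean, whiskers the SD of 3 libraries, and open points the third hnRNPK library. The CRLM1 gene rises in steps from 0 in Ctrl to 49.8 CPM in Antisense_NC and 599 CPM in CRLM1_NC, while PPAP2B and PRKAA2 are lowest in Antisense_NC and USP24 is highest in the Antisense background.

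PPAP2B, the nearest of the members, had 98, 176 and 134 counts in Ctrl_NC, which made 5.40, 7.04 and 5.97 CPM. In CRLM1_NC it had 6.11, 6.67 and 8.46 CPM, and in Antisense_NC 4.91, 5.23 and 4.09 CPM. The CRLM1_NC and Ctrl_NC libraries overlapped, and the Antisense_NC libraries lay below both. With hnRNPK, PPAP2B had 5.14, 5.13 and 6.70 CPM in Ctrl_hnRNPK, 5.19, 3.89 and 5.42 CPM in Antisense_hnRNPK, and 8.96, 9.24 and 5.53 CPM in CRLM1_hnRNPK. The third CRLM1_hnRNPK library was the only one of its background under 6 CPM. From highest to lowest mean the order was CRLM1_hnRNPK, CRLM1_NC, Ctrl_NC, Ctrl_hnRNPK, Antisense_hnRNPK and Antisense_NC, and no group in it was separated from the next by more than their summed SDs.

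CRLM1_NC against Ctrl_NC sets the full CRLM1 level against none. PPAP2B differed by 0.18 on the log2 scale (SE 0.16, 95% interval -0.15 to 0.50, adjusted p = 0.43), a fold of 1.13 with an interval of 0.904 to 1.41. The difference thus did not pass the test, and a rise above 1.41-fold lies outside its interval. CRLM1_NC was higher than Antisense_NC, by 0.60 (SE 0.16, 95% interval 0.27 to 0.93, adjusted p = 0.0019), and Antisense_NC was lower than Ctrl_NC, by -0.42 (SE 0.16, 95% interval -0.75 to -0.09, adjusted p = 0.022). The 3 NC comparisons share their samples, so these values are not independent of each other. In a single fit of all libraries neither difference passed (0.59, adjusted p = 0.074, and -0.39, adjusted p = 0.18). Of 15668 genes in that fit, 2357 passed in CRLM1_NC against Antisense_NC, beside 8102 in the main fit. The numbers for Antisense_NC against Ctrl_NC were 5093 and 9575. Antisense_NC against Ctrl_NC also lost its call without Antisense_NC replicate 3 (-0.33, adjusted p = 0.11), without Ctrl_NC replicate 2 (-0.31, adjusted p = 0.14) and on the authors' FPKM (-0.17 on the log2(FPKM + 0.1) scale, adjusted p = 0.32 by limma), where the median of all genes shifted by 0.21.

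PRKAA2, the next member after PPAP2B, differed between all 3 backgrounds in NC cells. It had 4.30, 5.12 and 7.58 CPM in Ctrl_NC, 9.30, 9.07 and 8.36 CPM in CRLM1_NC, and 3.10, 3.84 and 2.87 CPM in Antisense_NC. None of these ranges overlapped, and the order was CRLM1_NC, Ctrl_NC, Antisense_NC. CRLM1_NC was 1.55-fold higher than Ctrl_NC (log2 fold change 0.63, 95% interval 0.30 to 0.96, adjusted p = 0.002) and 2.78-fold higher than Antisense_NC (log2 fold change 1.48, 95% interval 1.15 to 1.80, adjusted p = 5.8e-10). Antisense_NC was lower than Ctrl_NC by -0.84 (95% interval -1.24 to -0.45, adjusted p = 0.00025). In a single fit of all libraries the CRLM1_NC against Ctrl_NC difference had the same size and lost its call (0.65, adjusted p = 0.43), as did Antisense_NC against Ctrl_NC (-0.81, adjusted p = 0.081). The latter also lost it on FPKM (-0.45 on the log2(FPKM + 0.1) scale, adjusted p = 0.086 by limma). In the single fit 102 of 15668 genes passed in CRLM1_NC against Ctrl_NC and 5093 in Antisense_NC against Ctrl_NC.

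PRKAA2 was a low gene, and its level per length stayed between 0.24 and 1.02 FPKM over all libraries. In the hnRNPK groups it had 10.1, 7.39 and 5.64 CPM in Ctrl_hnRNPK, 5.15, 6.09 and 7.09 CPM in Antisense_hnRNPK, and 12.3, 11.6 and 3.61 CPM in CRLM1_hnRNPK. The third CRLM1_hnRNPK library lay below every other library of the CRLM1 and Ctrl backgrounds, and the other two above them all.

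USP24, on the far side of the locus, moved with the Antisense background. It had 16.8, 15.4 and 17.3 CPM in Ctrl_NC, 19.0, 18.8 and 16.1 CPM in CRLM1_NC, and 30.8, 29.2 and 24.9 CPM in Antisense_NC. Ctrl_NC and CRLM1_NC overlapped and Antisense_NC lay above both. Antisense_NC was 1.66-fold higher than Ctrl_NC (log2 fold change 0.73, 95% interval 0.55 to 0.92, adjusted p = 7.3e-09), and CRLM1_NC was lower than Antisense_NC by -0.62 (95% interval -0.81 to -0.43, adjusted p = 4.8e-07). The latter call was lost in a single fit of all libraries (-0.64, adjusted p = 0.13), where 2357 of 15668 genes passed. CRLM1_NC and Ctrl_NC differed by 0.11 (95% interval -0.09 to 0.31, adjusted p = 0.44).

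The neighbours' counts are to be read against those of all genes. In CRLM1_NC against Ctrl_NC 1 of 3 neighbours passed the adjusted p, PRKAA2, where 34.3% of 14459 genes tested did, 16.9% higher and 17.4% lower. In CRLM1_NC against Antisense_NC 3 of 3 passed, where 56.4% of 14364 did, 26.9% higher and 29.5% lower. In Antisense_NC against Ctrl_NC 3 of 3 passed, where 66.5% of 14389 did, 34.4% higher and 32.2% lower. A change of at least 2-fold besides was seen for 1 neighbour in 1 of these comparisons, PRKAA2 in CRLM1_NC against Antisense_NC, where 7.18% of genes had one. The share of genes with such a change was 1.58% in CRLM1_NC against Ctrl_NC and 14.1% in Antisense_NC against Ctrl_NC.

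**Figure D2:**
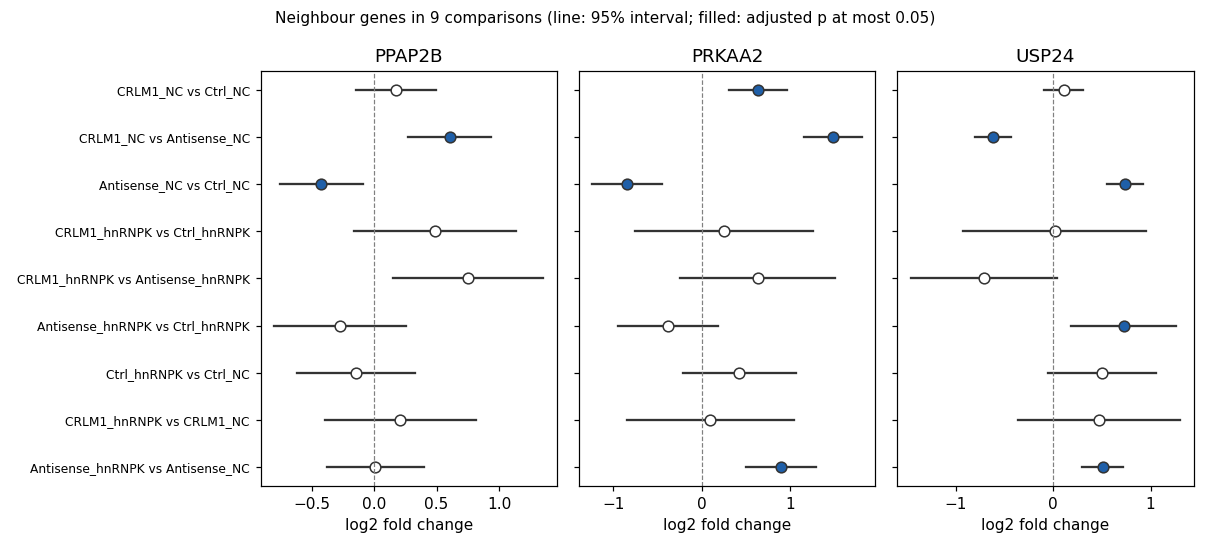
Log2 fold change (x axis) of PPAP2B, PRKAA2 and USP24 in 9 comparisons of groups (y axis), with 95% intervals as lines and filled points where the adjusted p was at most 0.05. In CRLM1_NC against Ctrl_NC only PRKAA2 is filled, at 0.63, and PPAP2B lies at 0.18 with an interval that spans 0.

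The wider neighbourhood was read the same way, over the 55 other genes of the table, the neighbours included, whose annotated start lies within 3 Mb of that of LINC01767. In CRLM1_NC against Ctrl_NC 29 of them were tested and 9 passed, 5 higher and 4 lower, or 31.0% beside 34.3% of all genes. Their median log2 fold change was 0.06, beside 0.01 over all genes. In CRLM1_NC against Antisense_NC 18 of 28 passed, 12 higher and 6 lower, or 64.3% beside 56.4% of all genes, with a median of 0.21 beside -0.0034 over all genes. In Antisense_NC against Ctrl_NC 22 of 29 passed, 9 higher and 13 lower, or 75.9% beside 66.5% of all genes, with a median of -0.31 beside -0.0025 over all genes. The nearest tested genes on either side of LINC01767 were PPAP2B and USP24 themselves.

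Among the genes of this window, JUN, a subunit of the transcription factor AP-1, lies 2369.1 kb from LINC01767 and had the highest level of those named here. It averaged 597 ± 4.02 CPM in Ctrl_NC, 432 ± 4.86 CPM in CRLM1_NC and 206 ± 10.9 CPM in Antisense_NC (SD, n = 3), with no overlap. JUN was lower in CRLM1_NC than in Ctrl_NC, by -0.48 (SE 0.03, adjusted p = 1.4e-16), and higher than in Antisense_NC, by 1.10 (SE 0.04, adjusted p = 3.1e-24). SSBP3, a cofactor of LIM-domain transcription factors, had the same order, with log2 fold changes of -0.42 and 0.46 (adjusted p = 8.3e-05 and 0.00016).

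Further genes of the window passed in CRLM1_NC against Ctrl_NC. MRPL37, of the mitochondrial ribosome, was higher by 0.21 and MYSM1, a histone deubiquitinase, by 0.20. TMEM59 was lower by -0.33 and MROH7 by -1.03, the latter at 1.38 CPM in Ctrl_NC and 0.674 CPM in CRLM1_NC. MROH7 overlaps the readthrough gene MROH7-TTC4, and unique reads could be split between them. MROH7 lost its call without CRLM1_NC replicate 2 (-0.90, adjusted p = 0.11) and without 3 other libraries, and MYSM1 without any 1 of 4 libraries (adjusted p up to 0.15). In a single fit of all libraries 8 of the 9 genes lost their call with values of like size, JUN among them (-0.47, adjusted p = 0.13). In that fit 102 of 15668 genes passed in CRLM1_NC against Ctrl_NC, beside 4960 in the main fit.

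Against Antisense_NC, genes of the window that were higher in CRLM1_NC besides those named included HSPB11, LRRC42, TMEM59, ACOT11, FAM151A, TMEM61 and FGGY. Those that were lower included NDC1, MROH7-TTC4 and PARS2, the mitochondrial prolyl-tRNA synthetase. PARS2 averaged 2.91 ± 0.477 CPM in Antisense_NC, 0.929 ± 0.489 CPM in CRLM1_NC and 0.427 ± 0.0227 CPM in Ctrl_NC (SD, n = 3). Antisense_NC was 6.49-fold higher than Ctrl_NC in it (adjusted p = 2.9e-09). Against Antisense_NC, JUN, FGGY and PARS2 passed in every alternative run. FAM151A lost its call by DESeq2 (adjusted p = 0.057), on FPKM and without any 1 of 4 libraries (0.86 to 1.28), HSPB11 on FPKM and without Antisense_NC replicate 3 (0.29, adjusted p = 0.067), and TMEM59 and ACOT11 on FPKM. These 4 genes and SSBP3, LRRC42, TMEM61, NDC1 and MROH7-TTC4 did not pass in the single fit of all libraries (adjusted p = 0.061 to 0.41). In that fit 2357 of 15668 genes passed in CRLM1_NC against Antisense_NC, beside 8102 in the main fit.

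**Figure D3:**
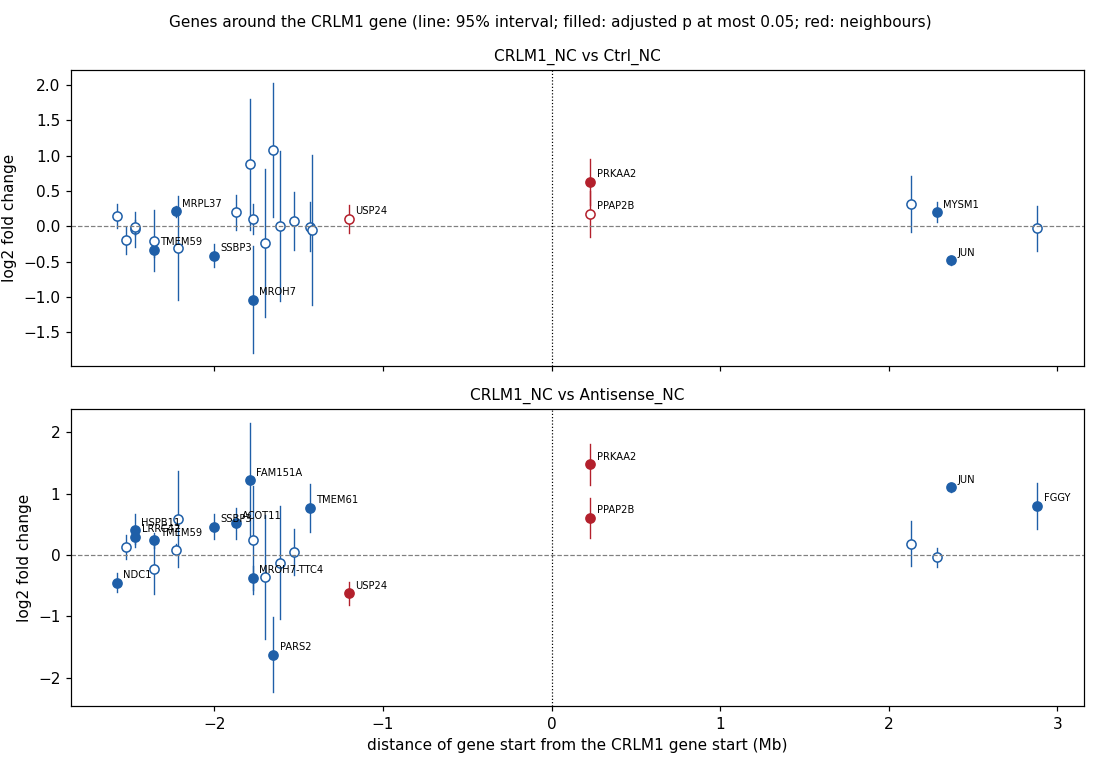
Log2 fold change (y axis) of tested genes reported here in the 3 Mb on each side of LINC01767 against the distance of the gene start from the start of LINC01767 (x axis, Mb), for CRLM1_NC against Ctrl_NC and against Antisense_NC; lines are 95% intervals, filled points passed the adjusted p, and red marks PPAP2B, PRKAA2 and USP24. In the upper panel PRKAA2 is filled at 0.63 and JUN at -0.48, and PPAP2B is open at 0.18.

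hnRNPK was then compared with NC inside each background. In the Antisense background PRKAA2 was higher with hnRNPK, by 0.89 (95% interval 0.49 to 1.29, adjusted p = 0.00075), and USP24 by 0.51 (95% interval 0.30 to 0.72, adjusted p = 0.00039), while PPAP2B differed by 0.01 (adjusted p = 0.96). There 2 of 3 neighbours passed, where 63.9% of all genes did. PRKAA2 has a low GC content, 35.2% of its transcript, beside 44.1% for USP24 and 48.6% for PPAP2B. When a trend on GC content and length was removed, neither call held (PRKAA2 0.17, adjusted p = 0.44; USP24 0.15, adjusted p = 0.19). USP24 also lost its call in the single fit of all libraries (0.51, adjusted p = 0.14).

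In the Ctrl and CRLM1 backgrounds 0 of 3 neighbours passed with all libraries, where 0.00% of all genes did by edgeR. At an unadjusted p under 0.05 the counts over all genes were 2246 in Ctrl and 1332 in CRLM1, and 0 neighbours in either; DESeq2 called 2 and 8 genes and limma 0 and 0, with 0 neighbours. In CRLM1_hnRNPK against CRLM1_NC the log2 fold changes were 0.21 for PPAP2B (95% interval -0.39 to 0.82), 0.10 for PRKAA2 (95% interval -0.84 to 1.04) and 0.47 for USP24 (95% interval -0.37 to 1.30). USP24 shows why these intervals are wide: it had 31.0, 29.7 and 11.2 CPM in CRLM1_hnRNPK, and 29.5, 26.5 and 15.1 CPM in Ctrl_hnRNPK. In both groups the third library lay below the other two, and below 16.1 CPM, the lowest CRLM1_NC library.

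Without the third hnRNPK libraries the picture differed. All 3 neighbours were higher in CRLM1_hnRNPK than in CRLM1_NC: USP24 by 0.80 (95% interval 0.59 to 1.01, adjusted p = 8.9e-08), PRKAA2 by 0.47 (95% interval 0.19 to 0.75, adjusted p = 0.0041) and PPAP2B by 0.42 (95% interval 0.08 to 0.75, adjusted p = 0.03). In this fit 58.5% of all genes passed. In Ctrl_hnRNPK against Ctrl_NC, USP24 was higher by 0.78 (adjusted p = 6.4e-06) and PRKAA2 by 0.64 (adjusted p = 0.015), and PPAP2B differed by -0.24 (adjusted p = 0.27), where 59.6% of all genes passed.

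The backgrounds were also compared under hnRNPK. In CRLM1_hnRNPK against Ctrl_hnRNPK 0 of 3 neighbours passed by edgeR, DESeq2 or limma, 0 had an unadjusted p under 0.05, and 0.0137% of all genes passed, 2 in number. PPAP2B differed by 0.49 (95% interval -0.16 to 1.14, adjusted p = 1). With the replicate number as a block, 0 neighbours passed and 1023 genes did. Without the third libraries PPAP2B was higher in CRLM1_hnRNPK, by 0.81 (95% interval 0.42 to 1.20, adjusted p = 0.0048), at 9.10 ± 0.196 CPM against 5.14 ± 0.00715 CPM (SD, n = 2), where 16.5% of all genes passed. PRKAA2 then differed by 0.44 (adjusted p = 0.09) and USP24 by 0.10 (adjusted p = 0.62).

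In CRLM1_hnRNPK against Antisense_hnRNPK 0 of 3 neighbours passed by edgeR, where 31.4% of all genes did. Only PPAP2B had an unadjusted p under 0.05 there. DESeq2 called PPAP2B (0.77, adjusted p = 0.032). Limma on log2(FPKM + 0.1), where the median of all genes shifted by -0.375, called USP24 instead (-1.17, adjusted p = 0.046). By edgeR PPAP2B differed by 0.75 (95% interval 0.15 to 1.36, adjusted p = 0.056) and USP24 by -0.71 (adjusted p = 0.13). Without the third libraries 3 of 3 passed, beside 52.7% of all genes, with PPAP2B higher by 1.05 (adjusted p = 0.00044), PRKAA2 higher by 1.12 (adjusted p = 9e-05) and USP24 lower by -0.41 (adjusted p = 0.006). Antisense_hnRNPK was higher than Ctrl_hnRNPK in USP24, by 0.72 (95% interval 0.18 to 1.26, adjusted p = 0.035), the 1 of 3 neighbours that passed where 40.7% of all genes did. That call was lost without any 1 of the 3 Antisense_hnRNPK libraries (adjusted p = 0.074 to 0.10). PPAP2B and PRKAA2 differed there by -0.27 and -0.38 (adjusted p = 0.39 and 0.26), and on log2(FPKM + 0.1), where the median of all genes shifted by 0.35, both signs turned (0.11 and 0.032). With the trend on GC content and length removed, PRKAA2 was lower, by -0.99 (95% interval -1.40 to -0.58, adjusted p = 0.0012). Without the third libraries PRKAA2 was lower in Antisense_hnRNPK, by -0.66 (adjusted p = 0.016), where 54.7% of all genes passed.

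**Figure D4:**
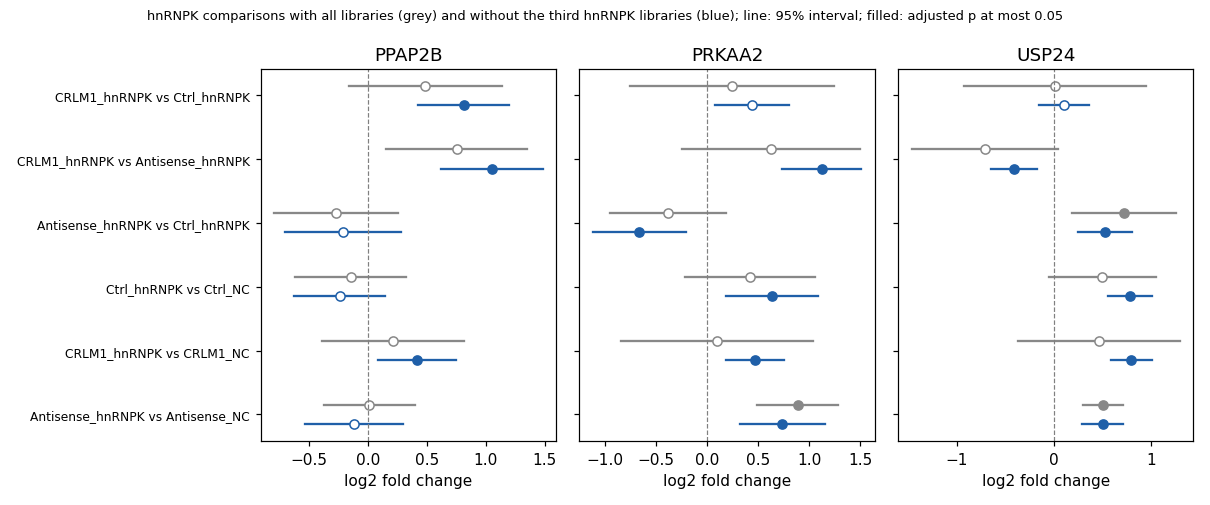
Log2 fold change (x axis) of PPAP2B, PRKAA2 and USP24 in the 6 comparisons that hold hnRNPK libraries (y axis), with all libraries in grey and without the third hnRNPK libraries in blue; lines are 95% intervals and filled points passed the adjusted p. The intervals narrow without the third libraries of the CRLM1 and Ctrl backgrounds, and PPAP2B in CRLM1_hnRNPK against Ctrl_hnRNPK goes from 0.49 to 0.81.

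Whether the hnRNPK difference itself varied between backgrounds was tested by an interaction term. None of the 3 neighbours passed in any of 3 such tests by edgeR, DESeq2 or limma, and 0 had an unadjusted p under 0.05. The hnRNPK difference of PPAP2B was larger in the CRLM1 than in the Ctrl background by 0.33 (95% interval -0.39 to 1.05, adjusted p = 1). That of PRKAA2 was smaller in the CRLM1 than in the Antisense background by -0.81 (95% interval -1.81 to 0.18, adjusted p = 0.34). These intervals include differences of over 1.5-fold in either member. Of all genes 0.00%, 1.12% and 0.00% passed for CRLM1 minus Ctrl, CRLM1 minus Antisense and Antisense minus Ctrl, and 221, 3115 and 2179 genes had an unadjusted p under 0.05. DESeq2 called 0, 1025 and 271 genes and limma 0, 296 and 0. Without the third libraries the neighbours still did not pass, while 3.45%, 26.5% and 16.05% of all genes did. The PPAP2B difference between the CRLM1 and Ctrl backgrounds was then 0.68 (95% interval 0.18 to 1.19, adjusted p = 0.13), and the PRKAA2 difference between the CRLM1 and Antisense backgrounds -0.31 (95% interval -0.78 to 0.17, adjusted p = 0.36).

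Genes that share a pathway with the neighbours were read in CRLM1_NC against Ctrl_NC, where 34.3% of all genes passed. Of 23 listed genes of lysophospholipid and sphingosine 1-phosphate handling besides PPAP2B, 15 were tested, 1 was higher and 0 were lower, or 6.67% of those tested. The one was SGPP2, a sphingosine 1-phosphate phosphatase, at 5.24 ± 0.426 CPM against 2.57 ± 0.325 CPM (SD, n = 3; log2 fold change 1.02, adjusted p = 7.8e-05). SGPP2 was higher still in Antisense_NC, at 7.52 ± 1.90 CPM. The lysophosphatidic acid receptors LPAR3 and LPAR1 and the phosphatase gene PPAPDC1B differed by -0.17, -0.28 and -0.22 (adjusted p = 0.13, 0.14 and 0.13).

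Of 8 other genes of the AMPK complex and its kinases, 7 were tested, 1 was higher and 2 were lower, or 42.9%. PRKAB2, a beta subunit, was higher by 0.31 (adjusted p = 0.00055). STK11, which encodes the AMPK-activating kinase LKB1, was lower by -0.20 (adjusted p = 0.00023), and CAMKK2, another activating kinase, by -0.20 (adjusted p = 0.014). PRKAG2, a gamma subunit, differed by 0.24 (adjusted p = 0.06). In Antisense_NC against Ctrl_NC, PRKAB2, STK11 and CAMKK2 passed in the same direction, by 0.21, -0.17 and -0.21 (adjusted p = 0.014, 0.00098 and 0.0058). None of these 3 genes passed between CRLM1_NC and Antisense_NC (adjusted p = 0.21, 0.72 and 0.89). Other genes of the list did: 3 of 7 passed there, 0 higher and 3 lower, or 42.9% beside 56.4% of all genes. In Antisense_NC against Ctrl_NC 6 of 7 passed, 4 higher and 2 lower, or 85.7% beside 66.5% of all genes. Of the reelin pathway genes listed, RELN and VLDLR were not found by symbol. Of the 4 found and tested, 1 passed in CRLM1_NC against Ctrl_NC, or 25.0%. LRP8, a reelin receptor, was lower by -0.21 (adjusted p = 0.0018), and FYN, SRC and DAB2 differed by 0.22, -0.09 and 0.13 (adjusted p = 0.29 to 0.66).

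Gene patterns across the 6 groups were compared by the root mean square difference of centred log2 group means, over 12958 other genes of at least 1 mean CPM. The genes nearest to PPAP2B were UFD1L, NTAN1 and RRM2, at 0.050, 0.058 and 0.066. Among the genes nearest to the CRLM1 gene, RPS4Y1 stood at 3.24 and AC083843.1 at 4.50, so no gene came close to its range. RPS4Y1 also differed between the backgrounds, by CPM back-transformed from mean log2 values. It was at 0 and 0 in Ctrl_NC and Ctrl_hnRNPK and at 0.0675 and 0.519 in Antisense_NC and Antisense_hnRNPK. In CRLM1_NC and CRLM1_hnRNPK it was at 7.59 and 8.40. The cause was not tested. These are descriptions over 6 group means that share libraries.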

How the data were processed

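RNA of 18 HCT116 libraries was sequenced. The processing notes name bcl2fastq, TopHat2, edgeR and build GRCh38. Per the file headers, the deposited tables hold raw read counts per gene, which the authors did not normalize, and FPKM, which the authors computed per gene length and library. Whether counting used the strand is not given in the sources used here. Every per-sample column was mapped by its name.

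Counts were tested with edgeR 4.0.16 in R 4.3.3 (TMM, filterByExpr, robust quasi-likelihood F-test), each comparison on its own libraries, and p-values were adjusted by Benjamini-Hochberg over every tested gene. A gene passed, or was called, at an adjusted p of at most 0.05. Changes that were also at least 2-fold are counted apart. There were 9 pairwise comparisons and 3 interactions. Limma 3.58.1 on log2(FPKM + 0.1) and log2(FPKM + 1), DESeq2 1.42.0 and the other settings of the closing section were alternatives. Intervals are 95% and floors 3 counts; both cover counting error or replicate spread only.

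Genes were named by rule: the members, genes starting within 3 Mb of LINC01767 that passed against Ctrl_NC or Antisense_NC, at most 4 per pathway list by adjusted p, and the 3 nearest patterns (0.1 added to CPM). Some genes that this rule names are not reported here, in the text or the plot, though counts over the window include them. The members and lists were chosen with earlier results of these data known. Of 31004 genes, 29999 matched GENCODE release 44 by gene ID. The main fits took no pairing from replicate numbers, and a block on them was an alternative run in every comparison. In CRLM1_hnRNPK against Ctrl_hnRNPK, deviations of same-numbered libraries from their group means correlated at 0.486, 0.379 and 0.658 over genes. In the 8 other pairwise comparisons these correlations ran from -0.151 to 0.100. The labels do not say whether the replicates were separate cultures, although the study calls them biological.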

Additional observations from a re-analysis of the deposited data

How the results depend on the processing

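How many of the 3 neighbours passed was recomputed 195 times over the 12 comparisons and differed in 30. It fell in the single fit of all libraries to 0 in CRLM1_NC against Ctrl_NC and to 1 in CRLM1_NC against Antisense_NC, Antisense_NC against Ctrl_NC and Antisense_hnRNPK against Antisense_NC, and on either FPKM scale to 1 in Antisense_NC against Ctrl_NC. There it was 2 without the filter and, for libraries left out in turn, 2 to 3. In CRLM1_hnRNPK against Antisense_hnRNPK it rose from 0 to 1 with RLE size factors, no filter, DESeq2 and both FPKM scales, to 2 in the single fit and without the trend on GC and length, and to 3 without the third hnRNPK libraries. The trend's removal gave 2 in Antisense_hnRNPK against Ctrl_hnRNPK and 0 in Antisense_hnRNPK against Antisense_NC. Leaving out the third libraries gave 1 in CRLM1_hnRNPK against Ctrl_hnRNPK, 2 in Antisense_hnRNPK against Ctrl_hnRNPK, 2 in Ctrl_hnRNPK against Ctrl_NC and 3 in CRLM1_hnRNPK against CRLM1_NC. Leaving out 1 library at a time gave 0 to 3, 0 to 2, 0 to 2 and 0 to 3 in CRLM1_hnRNPK against Antisense_hnRNPK, Antisense_hnRNPK against Ctrl_hnRNPK, Ctrl_hnRNPK against Ctrl_NC and CRLM1_hnRNPK against CRLM1_NC. The cause was not tested.

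With the replicate number as a block no count of neighbours changed. In CRLM1_hnRNPK against Ctrl_hnRNPK, where same-numbered libraries deviated alike, 0 neighbours passed, as without it, while genes that passed went from 2 to 1023. Under the block USP24 there turned to -0.047, PRKAA2 in CRLM1_hnRNPK against CRLM1_NC to -0.0687 and the USP24 interaction Antisense minus Ctrl to 0.020.

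Signs turned for values near 0 and for some further from it, such as PRKAA2 in Antisense_hnRNPK against Ctrl_hnRNPK, at -0.38 in the main fit. On log2(FPKM + 0.1) and log2(FPKM + 1), USP24 in CRLM1_hnRNPK against Ctrl_hnRNPK became -0.054 and -0.011, PPAP2B and PRKAA2 in Antisense_hnRNPK against Ctrl_hnRNPK 0.11 and 0.065, and 0.032 and 0.0059, the CRLM1 gene in Antisense_hnRNPK against Antisense_NC 0.0019 and 0.0019, the interaction of PPAP2B in CRLM1 minus Antisense -0.093 and -0.036, and that of USP24 in Antisense minus Ctrl 0.22 and 0.22. On the former scale PRKAA2 in CRLM1_hnRNPK against CRLM1_NC became -0.074. Relative to the median of all genes on that scale, PPAP2B and PRKAA2 in Antisense_hnRNPK against Ctrl_hnRNPK kept the main sign, at -0.25 and -0.32. So did the PPAP2B interaction, at 0.15. Turned signs remained for USP24 in CRLM1_hnRNPK against Ctrl_hnRNPK, at -0.042, and PRKAA2 in CRLM1_hnRNPK against CRLM1_NC, at -0.058. The USP24 interaction stood at 0.066. With the GC and length trend removed, MYSM1 in Antisense_NC against Ctrl_NC became -0.17, the single turn past the threshold (adjusted p = 0.032), USP24 in CRLM1_hnRNPK against Ctrl_hnRNPK -0.011, PRKAA2 in Ctrl_hnRNPK against Ctrl_NC -0.066 and in CRLM1_hnRNPK against CRLM1_NC -0.37, and the USP24 interaction CRLM1 minus Antisense 0.082. PPAP2B in Antisense_hnRNPK against Antisense_NC became -0.017 with RLE size factors, -0.0155 with DESeq2 and -0.12 without the third libraries, where the USP24 interactions became 0.045 (CRLM1 minus Ctrl) and 0.26 (CRLM1 minus Antisense). Leaving out 1 library at a time gave -0.024 to 0.63 for PRKAA2 and -0.23 to 0.35 for USP24 in CRLM1_hnRNPK against Ctrl_hnRNPK, -0.19 to 0.47 for PRKAA2 in CRLM1_hnRNPK against CRLM1_NC and -0.12 to 0.11 for PPAP2B in Antisense_hnRNPK against Antisense_NC. For the interactions it gave -0.64 to 0.046 for PRKAA2 and -0.30 to 0.30 for USP24 in CRLM1 minus Ctrl, -0.29 to 0.31 for USP24 in CRLM1 minus Antisense and -0.29 to 0.16 in Antisense minus Ctrl.

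Numbers of genes that passed moved by over 1.5 times in several comparisons. From 4960, 8102 and 9575 in the NC comparisons CRLM1 against Ctrl, CRLM1 against Antisense and Antisense against Ctrl, the single fit gave 102, 2357 and 5093. In the interactions CRLM1 minus Ctrl, CRLM1 minus Antisense and Antisense minus Ctrl, 0, 171 and 0 genes became 534, 4107 and 2519 without the third libraries. Without filter 24 and 253 genes passed in CRLM1_hnRNPK against Ctrl_hnRNPK and Ctrl_hnRNPK against Ctrl_NC. PRKAA2 and PPAP2B rested on 56 to 270 and 80 to 196 counts a library, which limits what could be detected.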
